A study of Glycine max with 6 samples.

Results

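MYB transcription factors were followed in the first trifoliolate leaf of soybean, Glycine max cultivar OAC Bayfield, on an Affymetrix soybean array. They were taken as every soybean probe set whose mapped genes all carry a symbol or synonym beginning with MYB and a number, with or without the prefix Gm. This gave 124 of 37593 soybean probe sets, of 61170 on the array. In the platform annotation 109 of the 124 are paired with 1 gene identifier, 14 with 2 and 1 with 3, and together they cover 68 genes once retired identifiers are merged by synonym. Plants at the V1 stage were sprayed on that leaf with 2 mL of liquid, and the leaf was harvested 48 h later. The LCO group (3 arrays) received 1e-07 M lipo-chitooligosaccharide, the Nod factor by which rhizobia signal to legume roots, and the water group (3 arrays) received distilled water. Both sprays held 0.02% Tween 20, a detergent, so the comparison leaves out any effect of the detergent or of spraying. The labels do not say whether the 3 samples of a group are separate plants, so the p-values rest on the spread among the arrays of a group, part or all of which may be technical.

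MYB proteins bind DNA through a domain of imperfect repeats, each folded around regularly spaced tryptophans. Most plant members carry a pair of such repeats and form one of the largest families of plant transcription factors, with described roles in flavonoid and lignin synthesis, trichome and cell fate, and responses to drought, salt and cold. Members with a single repeat include clock proteins of the LHY type. In soybean, MYB176 and MYB133 are known as activators of isoflavonoid genes, and isoflavonoids are among the compounds that induce the rhizobial genes for Nod factor synthesis.

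Values are log2 after RMA, and a probe set was tested where its mean over the 6 arrays was above 3.31, the level under which 90% of the means of the other organisms' probe sets on the array lay. Of the MYB probe sets 84 (67.7%) passed, against 77.9% of all soybean probe sets. These 84 cover 52 of the 68 genes, with means from 3.31 to 10.85, and 80 of them were above that level on all 6 arrays. Markers of leaf photosynthesis were bright, with means up to 14.39, none of 15 tested probe sets passed the test between groups, and the list's mean level per array ran from 10.16 to 10.34. Phloem genes of the SEO type also had no passing probe set, with a median difference of 0.74 over 7 tested and a list mean per array of 3.87 to 4.01 in water and 4.21 to 4.64 with LCO. Of the seed list, only trypsin inhibitor probe sets named KTI-2 and KTI-3 were tested, with a median of -1.29 over 3. Those of the inhibitors KTI1 and KTI3 were under the filter, as were the seed glycinins. The nodule markers had a median of 0.60 over 3 tested, and no probe set of either list passed. The part of these in the MYB results was not tested. The 3′ minus 5′ difference of the array's P450 control was 0.98 ± 0.03 in water and 2.27 ± 0.60 with LCO (log2, SD, n = 3), and its part in the results below was not tested. The corresponding differences were 0.39 ± 0.35 and 0.60 ± 0.27 for GlutTrans and 1.48 ± 0.13 and 1.31 ± 0.05 for actin.

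No MYB probe set passed the test between LCO and water with equal weight on every array and group as the only term. At an adjusted p under 0.05 (limma, Benjamini-Hochberg over all 29286 tested soybean probe sets) the count was 0 of 84, where 3.55% of all tested probe sets passed, and the smallest adjusted p among MYB probe sets was 0.0575, for MYB68. At an adjusted p under 0.1 there were 7 (8.33%), against 10.3% of all tested probe sets. At an unadjusted p under 0.05 there were 22 (26.2%), against 25.8%. Of these 22, 15 (17.9%) were higher with LCO, against 12.5% of all tested probe sets, and 7 (8.33%) were lower, against 13.3%. The 3 LCO values lay wholly above or below the 3 water values in 21 MYB probe sets (25%), against 31.5% of all. In 16 of these (19%) the LCO values were the higher, against 15.3%, and in 5 (5.95%) the lower, against 16.3%. The total shares were near the background or below it, and the split by direction was not tested. The result depended on the weight given to each array. With limma array weights, which were 0.36 for both water 3 and LCO 1, 0.57 for LCO 3 and 2.21 to 2.62 for the other arrays, 30 of the 84 passed (35.7%), beside 32.6% of all tested probe sets. They included MYB68, MYB69, MYB70, MYB81 and a probe set of MYB60, higher with LCO. Those lower with LCO included MYB184, MYB145, MYB64, MYB76, MYB29, MYB73, MYB175, MYB176 and probe sets of MYB139. With equal weights on all 6 arrays and group as the only term none of these passed. With the replicate number added as a block, 9 of the 84 passed (10.7%), beside 10.3% of all. MYB69, MYB70 and MYB184 were among them (adjusted p = 0.0429, 0.0281 and 0.0319). MYB184 had every LCO array under the 3.31 level, and MYB29 had an LCO mean of 3.07. Both were thus tested only because of their water values.

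The family as a whole had no common direction. The LCO mean was higher in 42 MYB probe sets and lower in 42, and the median log2 difference was 0.01, beside -0.01 over all tested probe sets. Individual differences ran from -1.86 to 1.73, with quartiles at -0.19 and 0.37, against -0.21 and 0.20 over all tested probe sets. The median size of a difference was 0.28 in the MYB probe sets and 0.20 in all, and the median standard error was 0.18 and 0.14. The size was 1 or more, a 2-fold difference, in 6 MYB probe sets (7.14%) and in 4.68% of all. The 95% interval lay inside -1 to 1 in 59 MYB probe sets (70.2%) and in 83.1% of all, and inside -0.5 to 0.5 in 18 (21.4%) and in 41.2% of all. For most MYB probe sets a 2-fold difference was outside the interval, but for most the interval reached past 0.5 on at least 1 side.

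**Figure D1:**
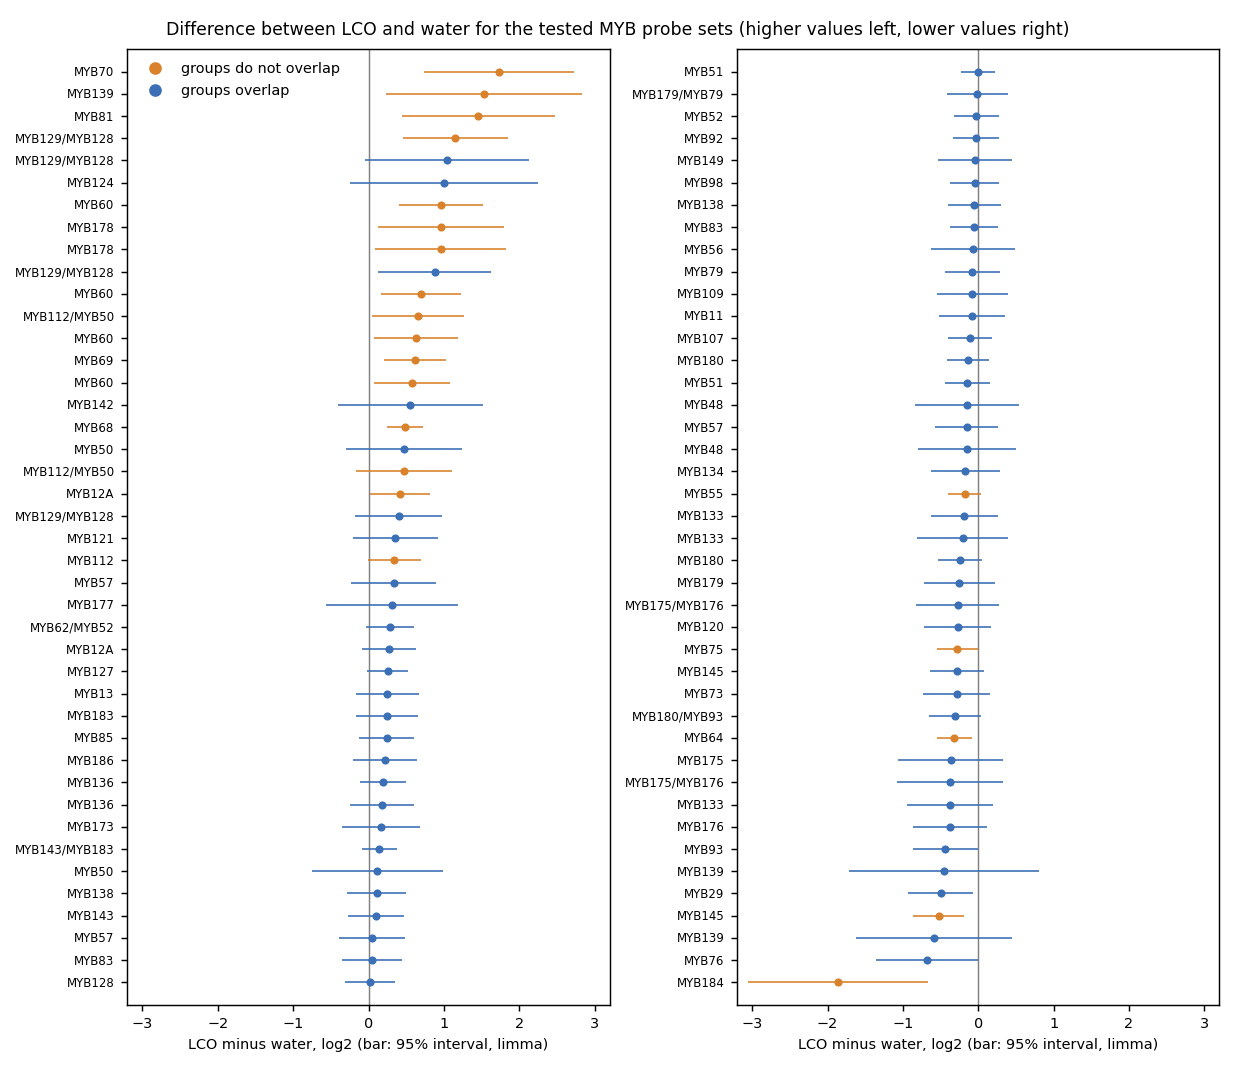
Log2 difference between LCO and water for the 84 tested MYB probe sets, with higher values in the left panel and lower values in the right. Each point is a probe set labelled by its gene or genes, the bar is the limma 95% interval, and orange marks the 21 whose groups do not overlap; MYB70 lies at 1.73 and MYB184 at -1.86.

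MYB70 had the largest positive difference. Its probe set, GmaAffx.51621.1.S1_at, read 7.15, 7.02 and 6.42 on water arrays 1, 2 and 3 and 9.53, 8.10 and 8.14 on LCO arrays 1, 2 and 3. Every LCO array was above every water array, and LCO 1 stood above the other LCO arrays by more than 1 log2 unit. The difference was 1.73 (SE 0.42, adjusted p = 0.0740), a 3.32-fold difference. Without LCO 1 it was 1.26 (adjusted p = 0.0657).

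MYB81 behaved alike. Its values were 6.92, 6.76 and 6.65 in water and 9.27, 7.60 and 7.81 with LCO, and the groups did not overlap. The difference was 1.45 (SE 0.42, adjusted p = 0.106), and LCO 1 was again the highest array by over 1 log2 unit. Without LCO 1 the difference was smaller, 0.93, and passed the test (adjusted p = 0.0385).

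For MYB139 the probe sets disagreed. GmaAffx.87757.3.S1_at read 7.09, 6.58 and 5.52 in water and 8.91, 7.23 and 7.64 with LCO, a difference of 1.53 (SE 0.54, adjusted p = 0.148). Its groups did not overlap, with water 3 the lowest array and LCO 1 the highest. The other MYB139 probe sets had the opposite sign, at -0.45 (SE 0.53) and -0.59 (SE 0.43), and their groups overlapped. The first of these, whose name ends in x_at because its probes also match other transcripts, read 7.48, 7.10 and 5.91 in water and 7.31, 5.92 and 5.91 with LCO. In all 3 probe sets water 3 was the lowest water array and LCO 1 the highest LCO array, so this within-group pattern was shared where the difference between groups was not. With array weights both probe sets with a negative difference passed as lower, and GmaAffx.87757.3.S1_at did not pass (0.72, adjusted p = 0.163). With the replicate number as a block GmaAffx.87757.3.S1_at passed as higher (adjusted p = 0.0446) and the others did not. The direction called for MYB139 thus turned with the setting.

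MYB60 was higher in 4 of 4 tested probe sets. The one with the smallest p read 3.93, 4.26 and 3.76 in water and 5.42, 4.65 and 4.77 with LCO, a difference of 0.96 (SE 0.23, adjusted p = 0.0752). A probe set with another cluster number in its name, GmaAffx.42587.1.A1_at, read 4.79, 4.46 and 4.51 in water and 5.67, 4.85 and 5.34 with LCO, a difference of 0.70 (SE 0.22, adjusted p = 0.119). The remaining differences were 0.63 (adjusted p = 0.158) and 0.58 (adjusted p = 0.155). The groups did not overlap in any of the 4, and LCO 1 was the highest array in each. The others carry the same cluster number and may share probes, so they are not independent readings.

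The MYB gene with the smallest p, MYB68, known for a role in salt and alkali tolerance, was dim and even within groups. Its values were 3.52, 3.62 and 3.42 in water and 4.02, 3.92 and 4.07 with LCO. All LCO arrays were higher, and no single array stood apart. The difference was 0.48 (SE 0.10, 95% interval 0.24 to 0.73, adjusted p = 0.0575). MYB69 read 4.78, 4.86 and 4.35 in water and 5.48, 5.23 and 5.12 with LCO, and its groups also did not overlap. Its difference was 0.61 (SE 0.17, adjusted p = 0.0998).

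Probe sets that the platform annotation pairs with both MYB128 and MYB129 had higher means with LCO. RefSeq holds these as a single gene, MYB128 with the synonym MYB129. In Gma.15643.1.A1_a_at the values were 3.26, 3.64 and 4.05 in water and 4.30, 4.86 and 5.24 with LCO, a difference of 1.15 (SE 0.29, adjusted p = 0.0814). The groups did not overlap, and here LCO 3 rather than LCO 1 was the highest array. The other 3 such probe sets differed by 1.04 (adjusted p = 0.206), 0.88 (adjusted p = 0.152) and 0.40 (adjusted p = 0.339), and in each the groups overlapped. The probe set that the platform annotation pairs with MYB128 only differed by 0.02 (95% interval -0.32 to 0.35).

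Among lower values MYB184 was the most extreme. It read 4.41, 5.88 and 4.04 in water and 3.22, 3.17 and 2.36 with LCO. All 3 LCO arrays were under the 3.31 filter level, so MYB184 was tested only because of its water values. Water 2 stood above the other water arrays. The fitted difference was -1.86 (SE 0.50, adjusted p = 0.0909). Taken against the 3.31 level, where the dim arrays give only a bound, the LCO group was at least 2.76-fold lower.

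MYB145 was lower in both tested probe sets. In GmaAffx.15471.3.S1_s_at the values were 7.40, 7.25 and 7.11 in water and 6.91, 6.51 and 6.79 with LCO, a difference of -0.52 (SE 0.14, adjusted p = 0.0934). The groups did not overlap there. In the other probe set they did, and the difference was -0.28 (adjusted p = 0.287). MYB64 read 6.32, 6.26 and 6.40 in water and 5.93, 6.00 and 6.10 with LCO, all LCO arrays lower, with a difference of -0.32 (SE 0.10, adjusted p = 0.115). This probe set was the tightest of these, with an SD of 0.07 in water and 0.09 with LCO. RefSeq lists MYB120 as a synonym of MYB64. A probe set annotated to MYB120 differed by -0.27 (adjusted p = 0.392), and its groups overlapped.

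**Figure D2:**
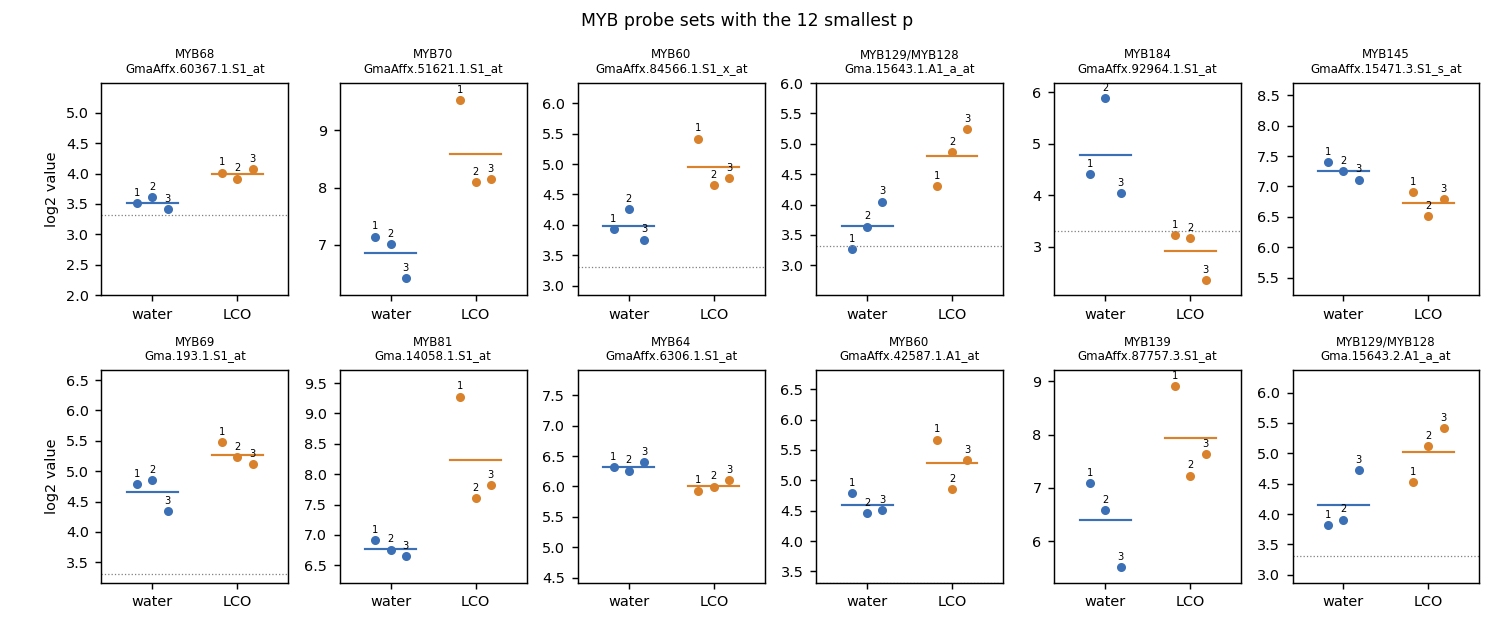
Log2 values on each array for the 12 MYB probe sets with the smallest p; points are arrays numbered by replicate (blue water, orange LCO), horizontal lines are group means, and the dotted line is the 3.31 filter level where it lies in view. LCO 1 is the highest point for MYB70, MYB81, MYB139 and MYB60, while the LCO points of MYB68 lie between 3.92 and 4.07.

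Of the genes known from isoflavonoid regulation, MYB176, MYB133 and MYB29 had lower means with LCO in their tested probe sets. MYB12A, described with them, had higher means in its tested probe sets. None of these passed with equal weights, and some of the lower ones passed with array weights. MYB176, known to activate the chalcone synthase gene CHS8, read 11.24, 11.17 and 10.70 in water and 10.99, 10.42 and 10.56 with LCO. Water 3 lay among the LCO arrays and LCO 1 among the water arrays, so the groups overlapped. The difference was -0.38 (SE 0.21, 95% interval -0.87 to 0.11, adjusted p = 0.294). MYB175 was named for its brightness and not for a described role. Its probe set read 10.70, 10.64 and 9.93 in water and 10.54, 9.96 and 9.68 with LCO, a difference of -0.36 (SE 0.29, adjusted p = 0.464). A further pair of probe sets, matched to both MYB175 and MYB176, differed by -0.38 and -0.27 (adjusted p = 0.458 and 0.482). With array weights the difference was -0.67 for MYB176 (adjusted p = 0.0132), -0.64 for MYB175 (adjusted p = 0.0297) and -0.70 and -0.47 for the shared probe sets (adjusted p = 0.0252 and 0.0409). Leaving out an array moved that of MYB175 between -0.61, without water 3 or LCO 1, and -0.17, without LCO 3. These 4, which share a cluster number, were among the 5 MYB probe sets with the highest mean over the arrays, and the fifth, paired with both MYB143 and MYB183, differed by 0.14 (95% interval -0.09 to 0.37).

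MYB133 had lower means with LCO in 3 of 3 probe sets. Its differences were -0.38 (95% interval -0.95 to 0.19), -0.20 (-0.81 to 0.40) and -0.19 (-0.63 to 0.26), with adjusted p of 0.359, 0.639 and 0.554. In the first of these the values were 6.07, 5.87 and 5.27 in water and 5.64, 5.13 and 5.30 with LCO, so that water 3 lay within the range of the LCO arrays. In all 3, water 3 was the lowest water array and LCO 1 the highest LCO array. Without water 1 the differences were -0.21, -0.06 and -0.04, and without water 3 they were -0.61, -0.49 and -0.38, none passing. With array weights the first was -0.71 and passed (adjusted p = 0.0180), and the others did not. MYB29, also known from isoflavonoid regulation, was dim, with 3.80, 3.56 and 3.33 in water and 3.37, 2.88 and 2.95 with LCO. Its LCO mean of 3.07 was under the 3.31 level, so it was tested only because of its water values. Its difference was -0.50 (SE 0.18, adjusted p = 0.155), and a further MYB29 probe set under the filter was also lower, with means of 3.30 ± 0.18 in water and 2.86 ± 0.14 with LCO (SD, n = 3). The tested probe sets of MYB12A differed by 0.41 (adjusted p = 0.184) and 0.27 (adjusted p = 0.304). Of the MYB12A probe sets under the filter, the LCO mean was higher in one (2.72 ± 0.27 in water, 3.17 ± 0.19 with LCO) and lower in the other (3.04 ± 0.25 and 2.72 ± 0.08, SD, n = 3). Without LCO 1 the larger tested difference was 0.24.

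Enzyme genes of the pathway were counted beside these regulators. Of 50 tested probe sets of flavonoid and isoflavonoid genes listed by symbol, 14 fell (28%), 1 rose (2%) and 35 did not pass, where 1.88% of all tested probe sets fell and 1.67% rose. Of the 14, 3 had every LCO array under the 3.31 level, 2 of CHS1 and 1 of IFR, and so were tested only because of their water values. The median difference was -0.59, against -0.01 over all tested probe sets. The list also takes in genes of other pathways whose symbols begin alike, such as CYP93E1 of saponin synthesis. CHS8, the described target of MYB176, fell in 1 of its 4 tested probe sets, by a log2 difference of -1.71 (SE 0.31, adjusted p = 0.0404). The other 3 CHS8 probe sets stood at -1.67, -1.20 and -0.98 and did not pass. A probe set annotated to the isoflavone synthase gene IFS1 rose by 2.09 (SE 0.25, adjusted p = 0.0140), and one annotated to IFS2 stood at -1.09 (adjusted p = 0.170). RefSeq lists each of these names as a synonym of the other gene, and both probe sets are of the s_at type, so which gene each reads is uncertain. In the 20 tested probe sets of phenylpropanoid entry and lignin genes none passed, and the median was -0.35. The difference between regulators and enzymes was not itself tested.

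**Figure D3:**
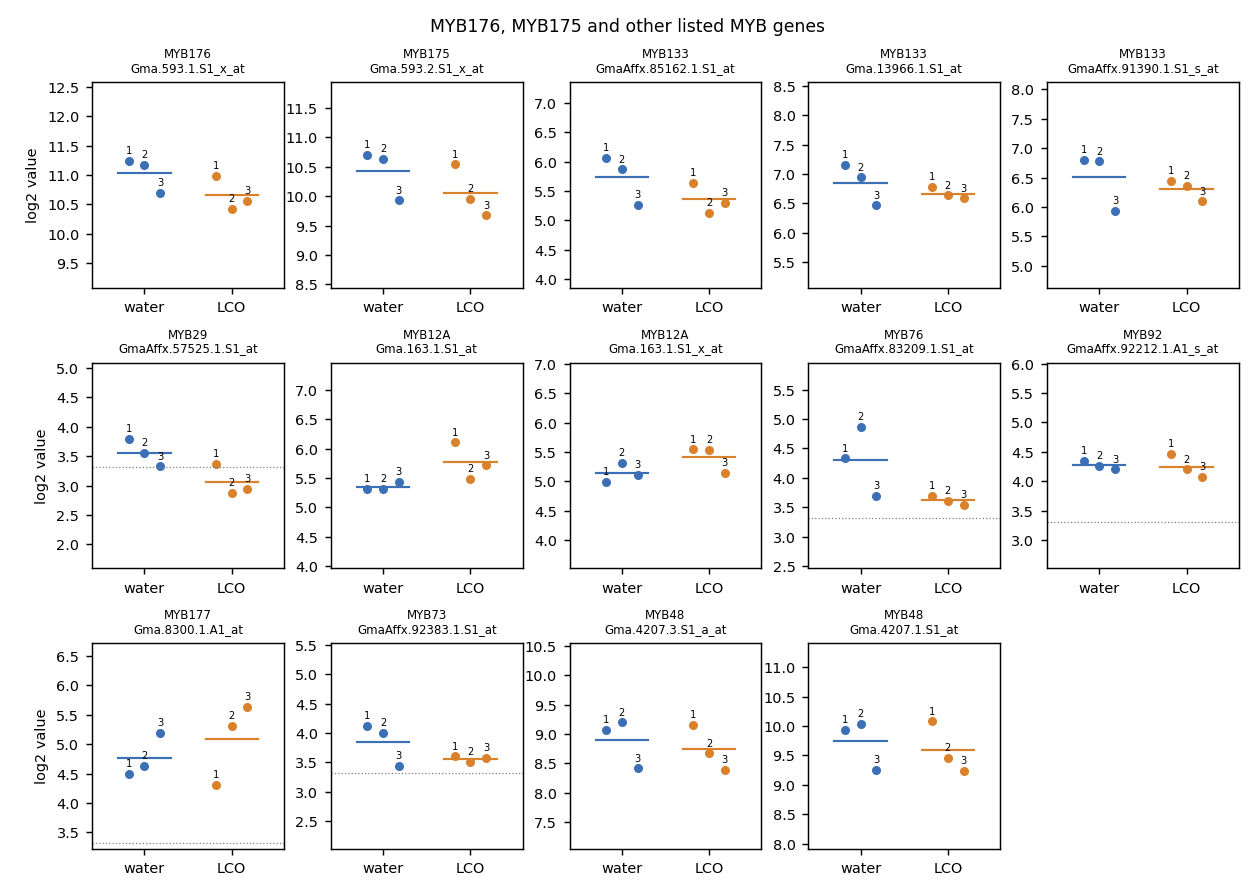
Log2 values on each array for MYB176, MYB175 and other listed MYB genes; points are arrays numbered by replicate, horizontal lines are group means, and the dotted line is the 3.31 filter level where it lies in view. For MYB176, MYB175 and MYB133 the third water array lies low and the first LCO array high within its group, and the 2 groups overlap.

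Factors described for stress tolerance did not pass either. MYB76, MYB92 and MYB177 are known for salt or freezing tolerance when overexpressed in Arabidopsis. MYB76 read 4.33, 4.87 and 3.69 in water and 3.69, 3.61 and 3.54 with LCO, a difference of -0.68 (SE 0.28, adjusted p = 0.190). Water 3 equalled LCO 1 to the printed digits, and without water 3 the difference was -0.98 and passed (adjusted p = 0.0372). MYB93, named after its values were seen, was the other gene to pass without water 3, at -0.62 (adjusted p = 0.0499) against -0.44 (adjusted p = 0.193) with all arrays.

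MYB177 read 4.49, 4.63 and 5.19 in water and 4.31, 5.31 and 5.63 with LCO. Its LCO arrays spanned more than the water arrays on both sides, and the difference was 0.31 (95% interval -0.56 to 1.18, adjusted p = 0.622). It was 0.70 without LCO 1 and 0.04 without LCO 3. MYB92 differed by -0.03 (95% interval -0.33 to 0.28) in its tested probe set. Under the filter, another MYB92 probe set read 3.62, 3.21 and 2.85 in water and 2.55, 2.26 and 2.46 with LCO, the largest difference of group means among untested MYB probe sets. MYB73, known from lipid accumulation, differed by -0.29 (adjusted p = 0.363), by -0.16 without water 1 and by -0.49 without water 3. Both MYB48 probe sets differed by -0.15 (adjusted p = 0.751 and 0.769), and in both water 3 and LCO 3 were low together.

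In some members a single array stood far from the rest of its group. They were named after their values were seen. MYB178 read 8.34, 8.30 and 8.41 in water and 10.21, 8.90 and 8.80 with LCO in its first probe set. The groups did not overlap, and LCO 1 was more than 1 log2 unit above the other LCO arrays. The difference was 0.96 in each of its probe sets (adjusted p = 0.167 and 0.154), and 0.51 and 0.53 without LCO 1 (adjusted p = 0.0748 and 0.0726). MYB124 read 3.74, 4.19 and 4.01 in water and 6.23, 4.08 and 4.63 with LCO, a difference of 1.00 (adjusted p = 0.275), which was 0.38 without LCO 1. MYB142 had its high value on LCO 3, at 8.89, with 7.83 and 7.35 on the other LCO arrays and 7.21 to 7.89 in water.

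MYB50 and MYB112 also had LCO 1 as their highest array. MYB50 read 8.78, 8.60 and 8.22 in water and 9.72, 8.54 and 8.76 with LCO in one of its probe sets, a difference of 0.47 (adjusted p = 0.396) that was 0.11 without LCO 1. Its other tested probe set differed by 0.12, and by -0.28 without LCO 1, so the sign turned with that array. MYB112 read 9.15, 9.15 and 9.16 in water and 9.80, 9.35 and 9.32 with LCO. Its water arrays were within 0.01 of each other and all LCO arrays were higher, with a difference of 0.34 (95% interval -0.01 to 0.70, adjusted p = 0.202), or 0.19 without LCO 1. The remaining probe sets with all LCO values lower were those of MYB75 and MYB55, with differences of -0.28 (adjusted p = 0.186) and -0.18 (adjusted p = 0.268). MYB127, with overlapping groups, differed by 0.25 (95% interval -0.02 to 0.53).

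Probe sets of the same gene mostly pointed one way. Genes were counted here by name, without the merging by synonym used for the gene counts above. Of 14 genes with at least 2 tested probe sets of their own (33 probe sets), 5 were higher in all, 5 lower in all and 4 mixed. The mixed genes were MYB139, MYB57, MYB138 and MYB83. The spread between the probe sets of MYB139 was 2.12 log2 units. For MYB57 it was 0.49, for MYB138 0.16 and for MYB83 0.10, and the median spread over the 14 genes was 0.15. Probe sets of 1 gene share RNA and often probes, so their agreement adds no replicate.

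The arrays of a group differed among themselves in the MYB probe sets in a way that all tested probe sets did not share to the same extent. LCO 1 gave the highest of the 6 values in 33 of the 84 MYB probe sets (39.3%), against 15.8% of all tested probe sets. Water 3 gave the lowest in 24 (28.6%), against 14.5%, and LCO 2 the lowest in 20 (23.8%), against 9.72%. LCO 1 was the highest of the LCO arrays in 60 MYB probe sets (71.4%), against 31.7%. In 42 (50%) water 3 was the lowest water array and LCO 1 the highest LCO array, against 21.7% of all, and in 13 (15.5%) the reverse held, against 29.5%. These shares are descriptions: no test was made, and probe sets on an array share its RNA.

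**Figure D4:**
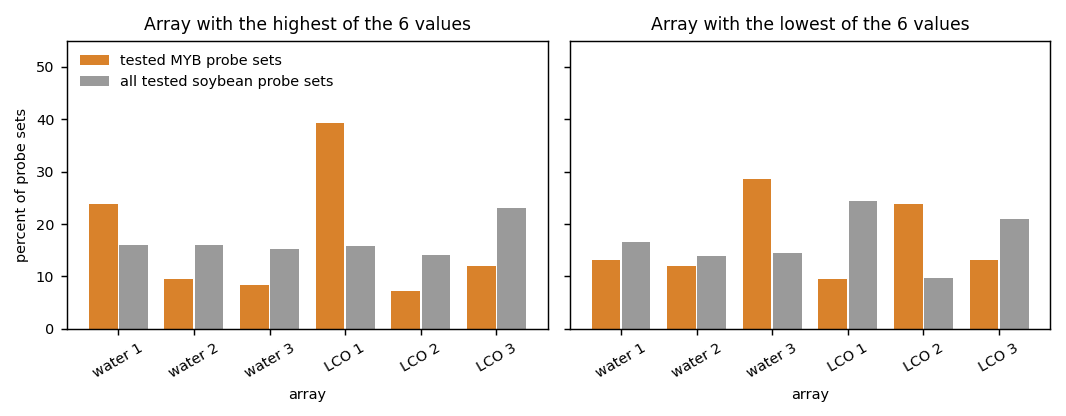
Percent of probe sets whose highest (left) or lowest (right) of 6 values fell on each array, for the 84 tested MYB probe sets (orange) and all 29286 tested soybean probe sets (grey). LCO 1 holds the highest value in 39.3% of MYB probe sets and water 3 the lowest in 28.6%.

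The distance of 1 array from the rest of its group was larger than the difference between groups for most members. A distance that holds a single array varies more than a difference of 3-array means. Noise alone would thus also make it the larger in most probe sets. The distance of LCO 1 from the mean of LCO 2 and 3 exceeded the difference between LCO and water in 54 MYB probe sets (64.3%), against 50.5% of all tested probe sets. The distance of water 3 from the mean of water 1 and 2 did so in 52 (61.9%), against 49.2%. LCO 1 exceeded the mean of LCO 2 and 3 by at least 0.5 log2 units in 25 MYB probe sets (29.8%), against 6.79% of all, and was below it by as much in 6 (7.14%), against 9.95%. The largest such excess was 1.87, in MYB124, followed by 1.57 in MYB81, 1.47 in a probe set of MYB139 and 1.41 in MYB70. Those furthest the other way were MYB177, at -1.16, and the probe sets paired with both MYB128 and MYB129.

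LCO 1 was also often the highest LCO array where all LCO values were higher. Of the 16 MYB probe sets in which all LCO values were higher, LCO 1 was the highest LCO array in 14 (87.5%), while among all 4468 such probe sets it was so in 32.9%. Over all 84 tested MYB probe sets, with or without overlap, it was so in 71.4%. Non-overlap with LCO higher needs the lowest LCO value to lie above every water value. The part of a high LCO 1 in the counts of non-overlap was not tested. Median MYB values per array were 6.81, 6.77 and 6.35 in water and 6.91, 6.43 and 6.40 with LCO. By this median water 3 lay with LCO 2 and 3, and LCO 1 with water 1 and 2. Medians over all tested probe sets ran only from 6.84 to 6.89. The SD of the difference between a pair of arrays over the MYB probe sets was lowest for water 1 and 2, at 0.25, and 0.30 for LCO 2 and 3. It was 0.45 between water 3 and LCO 2, below the 0.52 and 0.49 between water 3 and the other water arrays. Over all tested probe sets these SDs were 0.49, 0.46 and 0.45, so there water 3 was nearer the other water arrays. By the SD LCO 1 did not lie with water 1 and 2. Over the MYB probe sets its SD was 0.70 and 0.77 to water 1 and 2, and 0.58 and 0.60 to LCO 2 and 3.

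**Figure D5:**
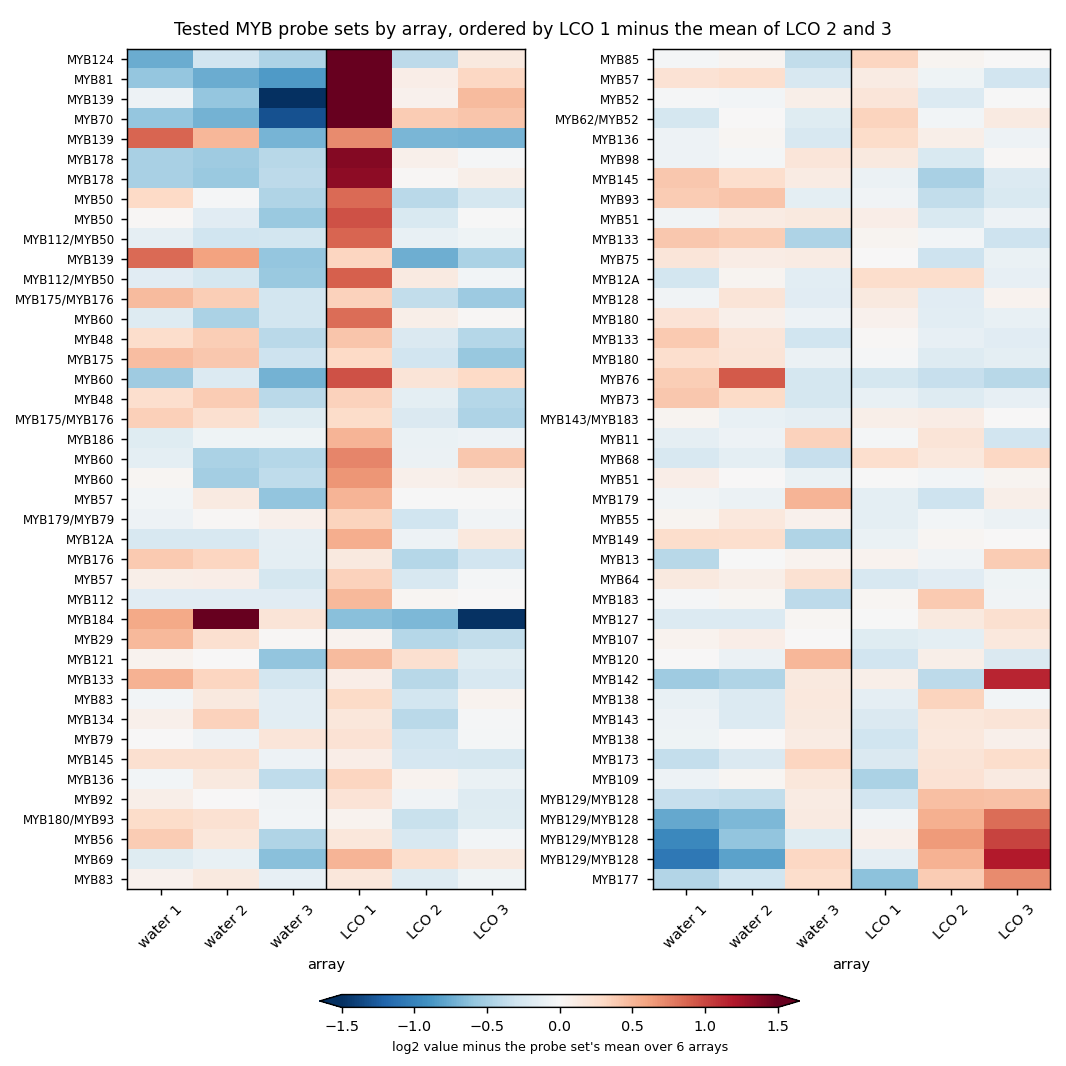
Log2 value minus the probe set's mean over the 6 arrays, by array (columns, water left of the line and LCO right), for the 84 tested MYB probe sets, ordered by LCO 1 minus the mean of LCO 2 and 3. Red is above and blue below the probe set's own mean, with colours capped at 1.5; the upper part of the left panel is red on LCO 1 and mostly blue on water 3.

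MYB-type genes outside the naming rule were the clock gene LHY and the phosphate-starvation regulators named PHR. None of their 10 tested probe sets passed, and the median difference was 0.05. Both LHY probe sets were near 0, at 0.06 (SE 0.14) and 0.04 (SE 0.14). No tested probe set was found for the listed protein partners of MYB factors.

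The remaining 40 MYB probe sets lay under the filter, with single values from 1.90 to 3.62 and means no higher than 3.16. They include all probe sets of 16 genes, among them MYB84 and MYB118, known from drought tolerance, MYB14, the gene GmMYB15, and the clock-type gene MYB156. The probe set annotated to MYB114, also clock-type, was under the filter too. RefSeq lists MYB134 as a synonym of MYB114, and a probe set annotated to MYB134 was tested, with a difference of -0.17 (limma adjusted p = 0.608). In 8 of the 40 the groups did not overlap, 6 higher with LCO and 2 lower, and the largest difference of group means was 0.81. In the brighter of its probe sets MYB14 read 2.97, 3.12 and 2.97 in water and 3.28, 3.25 and 3.38 with LCO. Of the 124, 32 were above the filter level on no array, so their values show neither a level nor its absence. In bulk leaf RNA, fewer cells of a type and less RNA per cell cannot be told apart for any of the genes above.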

How the data were processed

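The deposited table holds 1 value per probe set and array. The authors made these values with RMA, per the submitters' processing notes, and the deposited values are taken as log2 from their range, since the scale is not stated. Gene names come from the platform annotation, updated through Entrez identifiers to RefSeq (assembly Glycine_max_v4.0): of 75 identifiers 64 matched and 11 did not. The array's build is not given in the sources used here, so coordinates are left out. No protein or promoter sequences were used, so the planned grouping by protein repeats and motifs and the naming of the closest protein pairs were not done.

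LCO was compared with water in limma 3.58.1 (R 4.3.3, lmFit and eBayes, group as the only term, all 6 arrays), with Benjamini-Hochberg adjustment over the 29286 soybean probe sets whose mean exceeded the percentile 90 of the means of 23394 probe sets of other organisms (3.31), and a threshold of 0.05. The fit was tested on simulated data. A fold between group means is a lower bound, without an error range, where all 3 arrays of a group were under 3.31. The number of arrays limits the precision.

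The members, lists and tests were chosen with earlier results of these data known. Genes were named by rule: the 12 smallest p, the 6 largest differences without overlap, the 5 brightest, and listed genes with a described role. Other members were named after their values were seen. Alternative settings were other filters and normalizations, array weights, another prior, a block for the replicate number, water 1 and 2 averaged, 1 mean per gene, a relaxed threshold, and each array left out in turn. Figures used matplotlib 3.10.9 (Python 3.11.15, numpy 2.4.6, pandas 2.3.3).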

Additional observations from a re-analysis of the deposited data

How the results depend on the processing

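The count of MYB probe sets past an adjusted p of 0.05 was 0 of 84, and stayed 0 with no filter (0 of 124), a stricter filter (0 of 68), centred arrays, quantile normalization of the soybean probe sets, a trend and robust prior, water 1 and 2 averaged, and 1 mean per gene. With limma array weights it was 30 (12 higher, 18 lower, 35.7%), beside 9544 of all tested probe sets (32.6%); at an adjusted p under 0.1 it was 7. The count over all tested probe sets was 1040, and 203 with water 1 and 2 averaged. Leaving out single arrays gave 0 to 2 MYB probe sets and 193 to 2207 of all: MYB76 and MYB93 passed without water 3, MYB81 without LCO 1. All 3 are described above. With the replicate number as a block the counts were 9 MYB probe sets (10.7%) and 3010 in all (10.3%). The numbers are not taken to pair the samples: deviations of same-numbered arrays correlated at 0.45, -0.04 and 0.53, and water 2 correlated best with LCO 1. The median MYB difference ran from -0.03 to 0.07 over these settings. For the 29 probe sets named by rule, 373 of 404 comparisons kept the direction and the side of the threshold, 27 newly passed and 4 reversed sign. The reversals came from leaving out arrays: -0.395 to 0.0231 and -0.393 to 0.0195 for the MYB48 probe sets and -0.134 to 0.0625 for MYB92 (0.0144 without water 1, 0.0625 without LCO 3). The cause of these changes was not tested. Signal near background limits MYB184, MYB29 and the 40 untested probe sets.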
